A study of Rattus norvegicus with 2 samples.

Results

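Cytochromes P450 and the other enzymes of phase 1 metabolism were measured as RNA ratios of rat lung cells over a mixed control RNA. The genes were taken by name, from every probe whose annotated symbol begins with Cyp and a family number (Cyp51 aside), Fmo, Ces, Ephx, Aox or Adh and a number, together with the reductase genes Por and Cyb5r3. This gave 113 probes and 97 genes, of 15610 named genes on the array: 66 were P450 genes and 31 were other enzymes. The lung group held 2 samples of untreated rat lung cells that were not cultured, each hybridised in Cy3 on its own two-colour Agilent array. The control, mix1, was a single mixed RNA, labelled in Cy5 on both arrays. It came from cultured bone marrow cells (BMC) and cultured primary ear fibroblasts (PEF) of the rat, each grown in medium with fetal bovine serum. The sources used here give no strain, sex or age.

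Phase 1 enzymes add or uncover a reactive group on drugs, toxicants, steroids and fatty acids, mostly by oxidation or hydrolysis. P450s are haem proteins of the endoplasmic reticulum or mitochondria and take electrons from partner reductases, chiefly the P450 oxidoreductase Por. The liver holds most of this activity, whereas in lung it is known best from club cells, secretory cells of the airway lining, and from alveolar type 2 cells.

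All values are log2 ratios as deposited, read as lung over mix1, so that 1 means 2-fold higher and -1 means 2-fold lower in lung. That direction is likely rather than stated. It rests on the series wording, which sets lung against mix1, and on surfactant and club cell genes being positive with this sign. The scanner software's own log ratio would be Cy5 over Cy3, and if that convention had been kept, higher and lower would swap throughout. A gene was called when it passed limma's moderated test with Benjamini-Hochberg adjustment over all 15610 genes, at an adjusted p under 0.05. Because 82.7% of all genes passed that test, a size rule is given beside it: at least 2-fold from 0 in the same direction in both arrays. The labels do not tie the lung samples to separate animals, so p-values reflect the spread between 2 hybridised samples alone, and that spread may be technical. The dyes were never swapped and mix1 entered as 1 RNA, so dye and RNA cannot be told apart and the spread of mix1 is left out. In a bulk RNA ratio, fewer cells of a type and less RNA per cell cannot be told apart either.

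Of the 97 members, 30 met the 2-fold rule as higher in lung, against 16.5% of all genes, and 6 met it as lower, against 15.8% of all genes. They make up 30.9% and 6.19% of the members. At 16-fold in both arrays, 11 members were higher, against 2.14% of all genes, and 2 were lower, against 0.98% of all genes. By limma, 47 members were higher (32.9% of all genes were) and 31 were lower (49.7% of all genes were), while 19 did not pass. With each array's median subtracted, these limma counts were 52 higher and 17 lower, and over all genes they were 6007 higher and 5932 lower. The median member lay at 0.36, the median gene at -0.22. Of the members, 37 were under 1.5-fold from 0 in the mean (38.1%, against 43.6% of all genes), yet 23 of these 37 passed limma's test. Intensities were not used here, so a ratio near 0 does not separate equal RNA from a probe that is dim in both channels.

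The 2 arrays gave close values for most members. The median SD between arrays was 0.09 for members and 0.05 for all genes, on the log2 scale. An SD above 0.5 was found for 8 members, or 8.25%, against 3.73% of all genes. Signs differed between the arrays for Ces5a and Cyp39a1, and neither gene passed limma's test.

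The P450 genes fell into 34 subfamilies, 10 of them with more than 1 measured gene. Families 1 to 3, which oxidise most drugs and toxicants, held 37 genes, and by the 2-fold rule 16 of them were higher and 1 was lower (median 0.72). Family 4, which hydroxylates fatty acids, held 13 genes with 1 higher and 0 lower by the 2-fold rule (median 0.07). The 16 genes of the families numbered above 4, most of which act on steroids, sterols, vitamin D or retinoic acid, had 1 higher and 4 lower (median -0.54). By the same rule 16.5% of all genes were higher and 15.8% were lower. Subfamilies were not tested against each other.

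Members of 1 subfamily often differed widely. Of the 10 subfamilies with several genes, only Cyp2j had every gene at least 2-fold higher in both arrays. In 6 subfamilies some genes met that rule and others did not, and in the other 3, Cyp11b, Cyp4a and Cyp4f, none met it. Cyp1a, Cyp2a and Cyp2b each spanned over 16-fold between their highest and lowest gene.

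**Figure D1:**
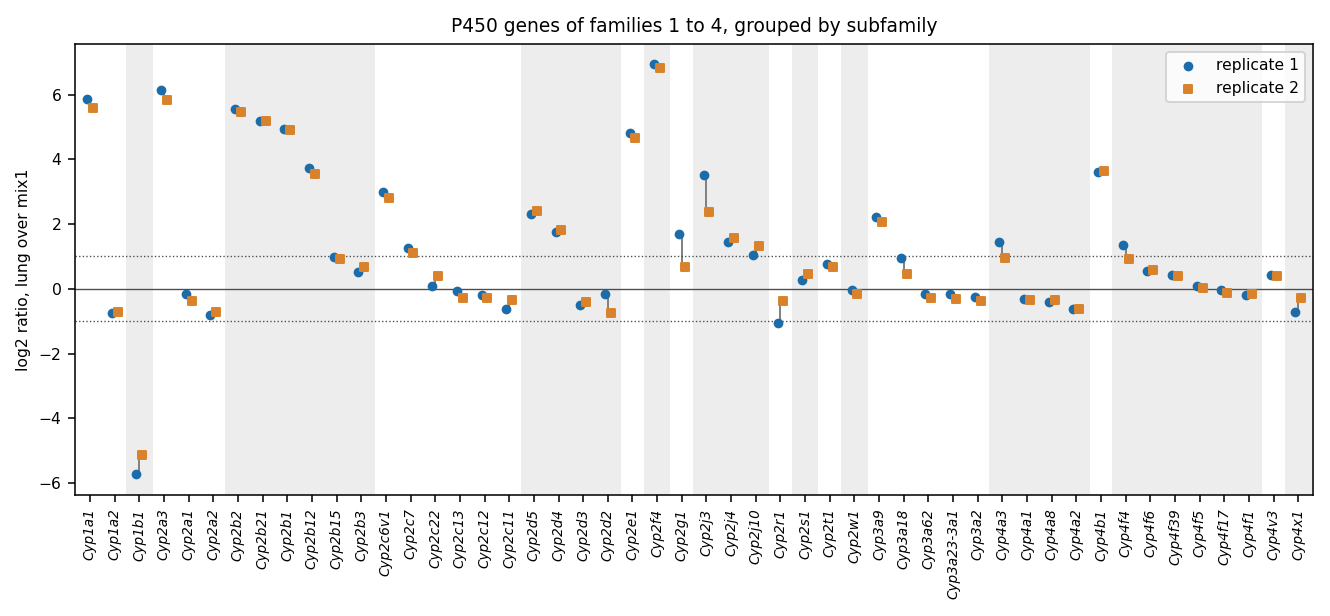
Log2 ratios of lung over mix1 (y axis) for each P450 gene of families 1 to 4 (x axis), with replicate 1 as circles and replicate 2 as squares joined by a line, shading that separates subfamilies, and dotted lines at 2-fold. Cyp2f4 stands highest at 6.93 and 6.82 and Cyp1b1 lowest at -5.73 and -5.14.

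Family 1 metabolises polycyclic aromatic hydrocarbons and is induced through the aryl hydrocarbon receptor. Cyp1a1, its main inducible enzyme, had log2 ratios of 5.85 in replicate 1 and 5.58 in replicate 2, or 52.4-fold higher in lung in the mean (limma adjusted p 0.00122). Cyp1a2, a mainly hepatic enzyme encoded beside it, lay at -0.74 and -0.72. Cyp1b1, which is also found in stromal cells outside the liver, lay at -5.73 and -5.14, or 43.3-fold lower in lung (limma adjusted p 0.0022). Both arrays thus put Cyp1a1 and Cyp1b1 far from 0 on opposite sides. Nqo1, a quinone reductase, Aldh3a1, an aldehyde dehydrogenase, and Tiparp, a feedback regulator, are also known to be induced through this receptor and were chosen after their values were seen. They averaged -2.71 ± 0.08, -0.15 ± 0.01 and 0.34 ± 0.02 (SD, n = 2). The receptor's part in any of these ratios was not tested.

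The promoter of Cyp1b1 is shown because GCGTG, the core of the sequence bound by the aryl hydrocarbon receptor, was searched in the family. Cyp1a1 was not searched here, and the window of Cyp1a2 held 0 matches. It is taken from RefSeq, build GRCr8, chr6:21094315-21094614, plus strand, running from 250 bases before to 50 bases after the annotated start. Capitals mark GCGTG or its complement CACGC, beginning at positions -81 and -20 counted from the start site.
Cyp1b1: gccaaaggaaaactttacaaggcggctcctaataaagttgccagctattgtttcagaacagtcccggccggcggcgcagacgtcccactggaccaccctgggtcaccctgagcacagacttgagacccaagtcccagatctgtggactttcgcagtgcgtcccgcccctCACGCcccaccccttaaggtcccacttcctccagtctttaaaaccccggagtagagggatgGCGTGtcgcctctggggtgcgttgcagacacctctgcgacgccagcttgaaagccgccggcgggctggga
On either strand, with overlapping matches counted, the motif occurs in 29.7% of all 33469 promoter windows of this length. Counted by gene, with any window of the gene sufficing, the motif was found for 42.3% of the 12890 measured genes that have a window. Of the 79 members with a window, 25 held it. These were 4 of the 26 that were at least 2-fold higher, all 4 that were at least 2-fold lower and 17 of the 49 others. A match is only a stretch of letters, and binding was not measured.

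Family 2 held the most genes that were higher in lung. By the 2-fold rule 14 of its 29 genes were higher and 0 were lower, against 16.5% and 15.8% of all genes. The median of the family was 1.18. Cyp2f4 belongs to the subfamily that turns naphthalene into a reactive epoxide in club cells. It had log2 ratios of 6.93 and 6.82, or 117-fold higher in lung (limma adjusted p 0.00117), and ranked 14 from the top among all 15610 genes. Cyp2a3, a P450 of the nasal and lung lining that oxidises nitrosamines, lay at 6.13 and 5.82 (limma adjusted p 0.00125). Its relatives Cyp2a1 and Cyp2a2, enzymes of steroid hydroxylation in liver, lay at -0.16 and -0.37 for Cyp2a1 and at -0.82 and -0.72 for Cyp2a2. Cyp2e1, which oxidises ethanol and small solvents, lay at 4.82 and 4.66. For these genes the gap between arrays was far smaller than the distance from 0, except for Cyp2a1 (limma adjusted p 0.0691, not passed).

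All 6 Cyp2b genes were higher in lung by limma, and 4 of them by the 2-fold rule, with a median of 4.28. Over all genes, 32.9% were higher by limma and 16.5% by the 2-fold rule. Cyp2b1 and Cyp2b2 are the phenobarbital-inducible pair of rat liver, and Cyp2b1 is known to be made in lung without an inducer. Cyp2b2 lay at 5.55 and 5.45, Cyp2b21 at 5.18 and 5.19, Cyp2b1 at 4.94 and 4.89, and Cyp2b12, known from skin, at 3.75 and 3.54. Cyp2b15 at 0.99 and 0.91 and Cyp2b3 at 0.53 and 0.68 were under 2-fold in both arrays. The Cyp2b15 value is a mean of 2 probes that differed, at 1.67 and 0.24. The Cyp2b genes are close copies, so RNA of 1 gene may bind a probe of another. Probe sequences were not used here, and binding across copies was not tested.

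The windows around the starts of Cyp2b1 and Cyp2b2 show how alike the pair is. Both are from RefSeq, build GRCr8, plus strand, at chr1:90645869-90646168 for Cyp2b1 and chr1:90722031-90722330 for Cyp2b2. Capitals mark the single GCGTG of each, beginning at position -86 in Cyp2b1 and -103 in Cyp2b2. The window of Cyp2f4, the P450 with the highest ratio, is at chr1:91543518-91543817, plus strand, and is shown for comparison. It holds no GCGTG or CACGC.
Cyp2b1: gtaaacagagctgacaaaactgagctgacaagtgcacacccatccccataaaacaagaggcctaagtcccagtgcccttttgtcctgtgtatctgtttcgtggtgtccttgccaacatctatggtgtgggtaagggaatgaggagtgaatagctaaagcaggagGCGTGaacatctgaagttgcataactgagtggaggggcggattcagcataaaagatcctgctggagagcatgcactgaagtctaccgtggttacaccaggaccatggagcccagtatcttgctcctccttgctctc
Cyp2b2: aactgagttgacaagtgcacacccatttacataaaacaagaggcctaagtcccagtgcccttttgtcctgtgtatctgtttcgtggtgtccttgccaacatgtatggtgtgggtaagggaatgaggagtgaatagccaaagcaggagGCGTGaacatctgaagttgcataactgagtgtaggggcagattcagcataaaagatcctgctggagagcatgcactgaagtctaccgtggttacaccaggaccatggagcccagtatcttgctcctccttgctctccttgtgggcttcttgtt
Cyp2f4: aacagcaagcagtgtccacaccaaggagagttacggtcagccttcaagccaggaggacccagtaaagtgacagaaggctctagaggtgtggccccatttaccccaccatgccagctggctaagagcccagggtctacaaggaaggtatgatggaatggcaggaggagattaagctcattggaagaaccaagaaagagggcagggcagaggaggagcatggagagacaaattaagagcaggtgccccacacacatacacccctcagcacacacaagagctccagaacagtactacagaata
In a global alignment, Cyp2b1 and Cyp2b2 matched at 275 of 283 paired bases, or 97.2%, whereas Cyp2b1 matched the other 4 Cyp2b windows at 72.9% to 81.4% of paired bases. With gap positions included, the pair was identical at 86.8% of the alignment and the other 4 at 49.9% to 55.0%.

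The remaining subfamilies of family 2 were higher in part. The 3 Cyp2j genes, which make epoxides of arachidonic acid, were all higher: Cyp2j3 lay at 3.53 and 2.38, Cyp2j4 at 1.44 and 1.58, and Cyp2j10 at 1.04 and 1.33. Cyp2j3 had the largest gap between arrays among the higher P450 genes, 1.15 on the log2 scale. Among 6 Cyp2c genes, Cyp2c6v1 lay at 2.99 and 2.80 and Cyp2c7 at 1.27 and 1.11. The Cyp2c7 value is a mean over 4 probes, from -0.79 to 3.79, and with the lower middle probe it was -0.26 (limma adjusted p 0.0323), lower in lung. The sex-specific liver enzymes Cyp2c11 and Cyp2c12 lay at -0.62 and -0.34 and at -0.18 and -0.29, under 1.5-fold in the mean. Among 4 Cyp2d genes, Cyp2d5 lay at 2.31 and 2.39 and Cyp2d4 at 1.75 and 1.81, whereas Cyp2d2 and Cyp2d3 averaged -0.47 ± 0.41 and -0.45 ± 0.05. Cyp2g1, a P450 of olfactory lining, lay at 1.70 and 0.66 and did not pass (limma adjusted p 0.0733). Cyp2r1, a vitamin D hydroxylase, lay at -1.07 and -0.36 and did not pass either (adjusted p 0.0917).

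Families 3 and 4 each held a gene that stood above the rest. Of the 5 Cyp3a genes, which oxidise many drugs and steroids, only Cyp3a9 met the 2-fold rule, at 2.22 and 2.05. Cyp3a18 lay at 0.95 and 0.47, and Cyp3a2, Cyp3a23-3a1 and Cyp3a62 averaged between -0.31 and -0.22. In family 4, Cyp4b1, an enzyme abundant in rodent lung that activates furan toxins and aromatic amines, lay at 3.61 and 3.63, or 12.3-fold higher in lung (limma adjusted p 0.00117). The fatty acid hydroxylases Cyp4a1, Cyp4a2 and Cyp4a8 averaged -0.33, -0.63 and -0.37, while Cyp4a3 lay at 1.44 and 0.94. The 6 Cyp4f genes, several of which inactivate leukotrienes, ran from -0.17 for Cyp4f1 to 1.14 for Cyp4f4. Cyp4v3 lay at 0.43 and 0.41 and Cyp4x1 at -0.71 and -0.29.

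Among the P450 families numbered above 4, 11 of 16 genes were lower by limma and 2 were higher, where 49.7% of all genes were lower and 32.9% higher. With array medians subtracted these counts were 8 lower and 3 higher, and Cyp11a1, Cyp11b3 and Cyp19a1 no longer passed. Cyp11b1, which makes corticosterone in the adrenal cortex, lay at -3.78 and -4.41, or 17.1-fold lower in lung (limma adjusted p 0.00346). Its neighbours Cyp11b2, the aldosterone synthase, and Cyp11b3 lay at -0.87 ± 0.18 and -0.21 ± 0.01 (SD, n = 2). Of 7 genes listed for steroid-making cells, 2 were higher and 4 lower by limma: Mc2r, the corticotropin receptor, lay at 1.40 ± 0.11, and Star, which brings cholesterol into mitochondria, at 0.83 ± 0.10, while Lhcgr lay lowest at -1.58 ± 0.19. Whether RNA of such cells contributed to the Cyp11b1 ratio was not tested. The other steroid P450s Cyp11a1, Cyp17a1, Cyp19a1 and Cyp21a1 averaged -0.29, -0.78, -0.28 and -0.54.

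Cyp26a1 and Cyp26b1 both break down retinoic acid and went opposite ways. Cyp26a1 lay at -1.88 and -1.63, lower in lung, and Cyp26b1 at 0.97 and 0.92, higher in lung by limma and just under 2-fold. The oxysterol hydroxylase Cyp7b1 lay at -1.75 and -1.65, and Cyp20a1, a P450 without a settled substrate, at -1.56 and -1.58. Cyp27a1, a mitochondrial sterol hydroxylase of bile acid synthesis, was the exception among the high-numbered families, at 2.07 and 2.16 (limma adjusted p 0.00132). Cyp24a1, which degrades vitamin D, averaged -0.54 ± 0.02. Cyp8b1, Cyp39a1 and Cyp46a1 averaged 0.28 ± 0.17, -0.03 ± 0.42 and -0.61 ± 0.59, and did not pass.

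**Figure D2:**
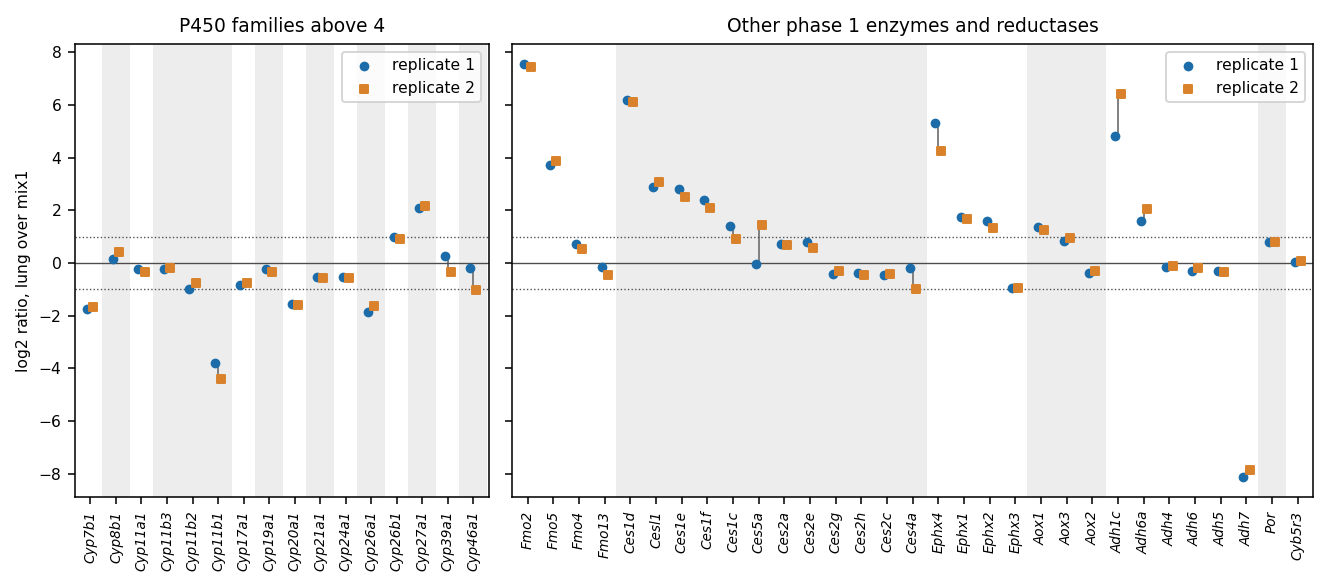
Log2 ratios of lung over mix1 (y axis, shared) for P450 genes of the families above 4 (left) and for the other phase 1 enzymes (right), with replicate 1 as circles, replicate 2 as squares and dotted lines at 2-fold. Fmo2 is highest at 7.54 and 7.43 and Adh7 lowest at -8.10 and -7.87.

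Of the 31 genes that are not P450s, 12 were higher and 1 was lower by the 2-fold rule, with a median of 0.71. The shares over all genes were 16.5% higher and 15.8% lower. The flavin monooxygenases oxidise nitrogen and sulphur atoms of drugs, and Fmo2 is the form known from lung. Fmo2 lay at 7.54 and 7.43, or 179-fold higher in lung, the highest of all members and rank 8 among all genes (limma adjusted p 0.00117). Fmo5 lay at 3.74 and 3.88. Fmo4 lay at 0.72 and 0.52, and Fmo13 averaged -0.30 ± 0.22 and did not pass.

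The carboxylesterases, which hydrolyse esters and amides, divided by subfamily. The 5 genes of the Ces1 group, Cesl1 included, were all higher by limma and 4 of them by the 2-fold rule, with a median of 2.65. The shares over all genes were 32.9% higher by limma and 16.5% by the 2-fold rule. The call of Ces1c rests on the mean of 2 probes, at -0.31 and 2.65. Ces1d, a lung and liver esterase that also cleaves triacylglycerol, lay at 6.17 and 6.13, or 71.0-fold higher in lung (limma adjusted p 0.00117). Cesl1 lay at 2.90 and 3.07, Ces1e at 2.80 and 2.49, and Ces1f at 2.41 and 2.07. The 5 Ces2 genes lay between -0.42 and 0.71 and none was 2-fold from 0. Ces4a and Ces5a had SDs of 0.57 and 1.05 and did not pass.

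Epoxide hydrolases open the epoxides that P450s make. Ephx1, the microsomal form that acts on foreign epoxides, lay at 1.76 and 1.65, and Ephx2, the soluble form that acts on fatty acid epoxides, at 1.60 and 1.31. Ephx4 lay at 5.31 and 4.27 (limma adjusted p 0.00576), and Ephx3 at -0.95 and -0.94. Aox1, an aldehyde oxidase, lay at 1.38 and 1.24, with Aox3 at 0.85 and 0.95 and Aox2 at -0.38 and -0.29.

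Single alcohol dehydrogenases lay far from 0 on both sides. Adh7, the retinol and ethanol dehydrogenase known from stomach lining, lay at -8.10 and -7.87, or 254-fold lower in lung, the lowest of all members and rank 7 from the bottom among all genes (limma adjusted p 0.00117). Adh1c, of the class that clears ethanol in liver, lay at 4.83 and 6.42. Its SD of 1.12 was the largest of any member, and both arrays put it more than 16-fold higher in lung (limma adjusted p 0.00901). Adh6a lay at 1.61 and 2.04. Adh4, Adh5 and Adh6 averaged -0.13, -0.32 and -0.24, with Adh5, the formaldehyde-clearing form, found in nearly all cells.

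The P450 oxidoreductase Por lay at 0.82 and 0.80, or 1.75-fold higher in lung (limma adjusted p 0.00218). Cyb5r3, the cytochrome b5 reductase, averaged 0.05 ± 0.03 and did not pass. Its 2 probes disagreed, with means of -0.78 and 0.87.

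Many of these genes lie near each other in the genome, and neighbours often had very different ratios. On assembly GRCr8, 16 groups hold members that each start within 1 Mb of the next. The arrays name no build, so only the order among measured members is given, and other genes may lie between them. In the group from Cyp2s1 to Cyp2t1, 6 of 13 genes met the 2-fold rule as higher, against 16.5% of all genes. They were Cyp2b1, Cyp2b2, Cyp2b21, Cyp2b12, Cyp2a3 and Cyp2f4. Between them stood Cyp2b3, Cyp2b15, Cyp2g1, Cyp2a1 and Cyp2a2, which did not meet the rule. In the order of measured members Fmo2 stands beside Fmo4, Cyp4b1 beside Cyp4a1, and Adh7 beside Adh1c. The last pair had the sharpest contrast, at -7.99 ± 0.16 for Adh7 and 5.63 ± 1.12 for Adh1c (SD, n = 2). All genes had positive means in the Ces1 group, the Cyp2j group, the pair of Fmo4 and Fmo2, and the pair of Ces2a and Ces2e.

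**Figure D3:**
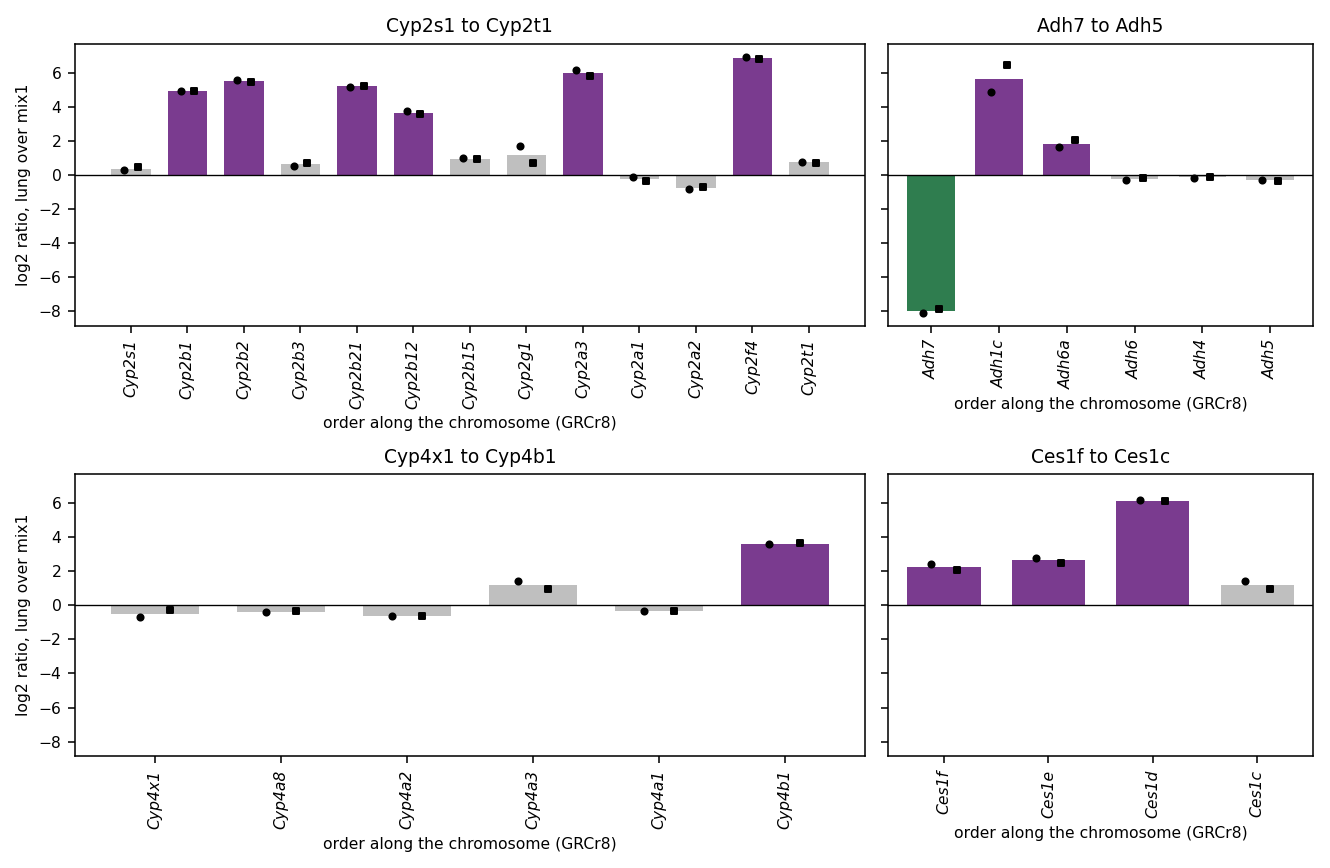
Mean log2 ratio of lung over mix1 (bars, y axis shared) for members in chromosomal order (x axis, GRCr8) in 4 groups of neighbours, with circles for replicate 1 and squares for replicate 2. Purple bars were at least 2-fold higher and green bars at least 2-fold lower in both arrays, and grey bars were neither; Adh7 at -7.99 and Adh1c at 5.63 stand side by side.

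Most members rest on a single probe: 86 had 1 and 11 had several. In 9 of these 11 the highest and lowest probe were more than 2-fold apart. The 4 probes of Cyp2b2 all lay far above 0, from 4.50 to 6.12. In contrast, the probes of Cyp2c7 lay on both sides of 0, as did those of Ces1c and Cyb5r3 given above and those of Cyp4v3, from -0.43 to 1.09. The mean ratios of these 4 genes thus combine probes of opposite sign.

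**Figure D4:**
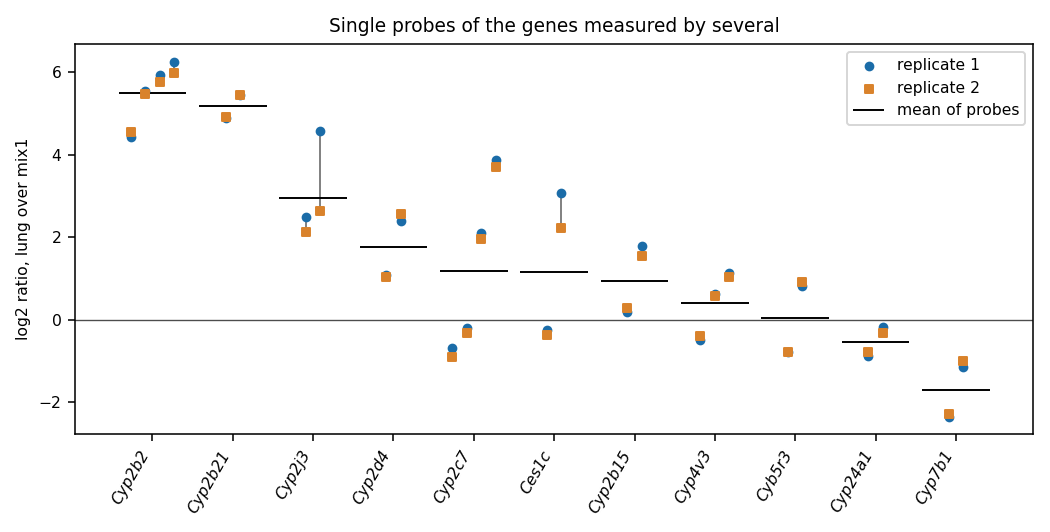
Log2 ratios of lung over mix1 (y axis) for each probe of the 11 members measured by several probes (x axis), with circles for replicate 1, squares for replicate 2 and a horizontal line at the gene's mean. Probes of Cyp2c7 spread from -0.79 to 3.79 in the mean, whereas the 2 arrays nearly coincide for most probes.

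For the genes that serve these enzymes, limma counts are to be read against the 32.9% higher and 49.7% lower over all genes. Of 9 electron partners beside Por and Cyb5r3, 5 were higher and 4 lower by limma (median 0.38), with Cyb5r2 at 3.41 ± 0.12 (SD, n = 2) and Cyb5a, cytochrome b5 itself, at 0.85 ± 0.01, and with Cyb5r1 at -2.30 ± 0.01 and Fdx2 at -0.80 ± 0.01. Of 11 genes that make or break down haem, 6 were higher and 5 lower (median 0.23). Alas1, the rate-limiting enzyme of haem synthesis outside red cells, lay at 3.31 ± 0.02 and Cpox at 2.17 ± 0.16, while Hmox1, which degrades haem, lay at -2.32 ± 0.06 and Ppox at -1.57 ± 0.04. All 3 P450s whose symbols do not follow the Cyp numbering rule used here were past 2-fold in both arrays. They were the prostacyclin synthase Ptgis at 3.08 ± 0.07, the thromboxane synthase Tbxas1 at 1.51 ± 0.01 and the sterol demethylase Cyp51 at -3.46 ± 0.07.

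Of 25 measured sensors and transcriptional regulators of P450 genes, 12 were higher and 10 lower by limma (median 0.34), against 32.9% higher and 49.7% lower over all genes. Centring each array on its median gave 13 higher and 7 lower. The forkhead factors Foxa2 and Foxa1, which act in lung and liver epithelium, lay at 5.73 ± 0.26 and 3.07 ± 0.23 (SD, n = 2), the corepressor Nr0b2 at 3.26 ± 0.28 and the oxysterol receptor Nr1h3 at 2.64 ± 0.02. The lowest were Nr1i3, the xenobiotic receptor CAR, at -1.49 ± 0.10, the vitamin D receptor Vdr at -1.10 ± 0.43, Arnt, the partner of the aryl hydrocarbon receptor, at -0.92 ± 0.26 and Ppara at -0.77 ± 0.09. Nr1i2, the xenobiotic receptor PXR, lay at 0.67 ± 0.06. Among 48 genes listed as other phase 1 oxidoreductases and hydrolases, 19 were higher and 10 lower by the 2-fold rule (median 0.16). By that rule 16.5% of all genes were higher and 15.8% lower. The 19 include Kcnab1, a potassium channel subunit, at 2.59 ± 0.02. The highest of the 48 were Aldh1a1 at 8.15 ± 0.41, Pon3 at 6.06 ± 0.13, Akr1c15 at 5.94 ± 0.06 and Akr1c19 at 4.11 ± 0.05. The lowest were Akr1b8 at -5.43 ± 0.08, Akr1c3 at -4.55 ± 0.22, Nqo1 at -2.71 ± 0.08 and Akr7a2 at -2.30 ± 0.001.

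Markers of cell types that could hold these RNAs were measured beside the members, and their part in the ratios was not tested. The type 2 and club cell genes also served to settle the sign, so their direction is no evidence of a difference. By the 2-fold rule in both arrays, 9 of 10 club cell genes were higher (median 4.54, range -0.10 to 5.17), as were 9 of 10 type 2 genes (5.64, range 0.56 to 7.11), 5 of 7 type 1 genes (4.62, range 0.58 to 6.33), 5 of 7 ciliated cell genes (3.75, range -0.35 to 5.79) and all 9 endothelial genes (4.31, range 2.27 to 6.36). All 9 genes listed for cultured fibroblasts were at least 2-fold lower (median -5.95, range -7.92 to -1.61). Macrophage genes were divided, with 2 of 10 higher and 3 lower (median 0.33, range -2.51 to 2.59). The same rule gave 16.5% of all genes as higher and 15.8% as lower.

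Hepatocyte markers were measured beside the liver-type enzymes, and 8 of 18 were higher and 1 was lower by the 2-fold rule (median 0.94, range -1.24 to 5.43). The highest were Fgg at 5.43 ± 0.19 (SD, n = 2), Hp at 3.81 ± 0.01, albumin (Alb) at 2.81 ± 0.11 and Ambp at 2.68 ± 0.20. Arg1 lay lowest at -1.24 ± 0.07, followed by Apoh at -0.48 ± 0.01 and Tat at -0.23 ± 0.10. The 4 genes that did not pass were Cps1 at 0.70 ± 0.56, Ttr at 0.57 ± 0.49, Apoa2 at 0.08 ± 0.10 and Apob at -0.08 ± 0.12. By limma 11 of the 18 were higher and 3 lower, or 14 higher and 2 lower with array medians subtracted. Over all genes 16.5% were higher and 15.8% lower by the 2-fold rule, and 32.9% and 49.7% by limma as deposited.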

How the data were processed

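The authors deposited a ratio for each probe on each array, taken here as log2; Agilent Feature Extraction is the tool in the submitters' processing notes. The sources used here give no log base, background correction, dye normalization or centring. Base 2 is assumed because values reach -11.74 and 9.09, too wide for decimal logarithms of scanner signals. Probe medians of -0.16 and -0.21 show no median centring.

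GEO's platform annotation names 20417 of 40012 probes, each with 1 symbol; 19595 are unnamed here. Symbols were updated to RefSeq (GRCr8), by accession for 16978 probes, and probes were averaged per gene. The update renamed 2 members. Ratios were tested against 0 with limma 3.58.1 in R 4.3.3 (lmFit, eBayes, 1 residual and 1.28 prior degrees of freedom). A run on simulated ratios checked the code only, and not the limits of dye, mix1 and samples given above. The number of arrays limits the precision. Promoter windows come from RefSeq and were aligned with Biopython 1.88.

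Named members are those at least 2-fold from 0 in both arrays, the extremes of each family, and Por and Cyb5r3; others are given to complete a subfamily, and were chosen after their values were seen. From other lists, up to 4 genes per direction were named by rank, with further genes chosen after their values were seen. The members and lists were chosen with earlier results of these data known.

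Alternatives were subtracting array medians, scaling the arrays to each other, the median probe (the lower of the middle probes), single probes, unrevised symbols, robust eBayes, limma's treat, an adjusted p under 0.01, other size rules, and each array alone.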

Additional observations from a re-analysis of the deposited data

How the results depend on the processing

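The counts by size held under most settings. Without replicate 1 or 2, the 30 higher members were between 31 and 34, and the 6 lower members were 7 each time. In the same settings the 7 P450 subfamilies with a median at least 2-fold higher were between 7 and 8. Among the 7, Cyp2e, Cyp2f, Cyp4b and Cyp27a hold 1 gene each. The Cyp1a median lies between Cyp1a1 at 5.71 and Cyp1a2 at -0.73. With array medians subtracted, 36 members were at least 2-fold higher and 6 were lower. At 4-fold 22 members were higher and 3 lower, and at 1.5-fold 40 were higher and 12 lower. The limma counts of lower members depended on centring and threshold: 31 as deposited, 17 with array medians subtracted, 17 at an adjusted p under 0.01 and 6 with treat against a 2-fold change. Treat left 26 members higher, and over all genes 2143 higher and 1881 lower. Subtracting array medians adds 0.19 to every mean ratio. With it, of the 54 named members alone, Aox2, Cyp11b3, Cyp19a1 and Cyp3a2 no longer passed, whereas Cyb5r3 and Cyp8b1 did. Among the 54 named members 1 reversed: Cyp2c7 lay at -0.26 with its lower middle probe and at -0.79 with its lowest probe. With its lower middle probe Cyb5r3 lay at -0.78 and passed as lower (limma adjusted p 0.00232). With array medians subtracted Cyb5r3 lay at 0.23 and passed as higher. Treat ended 16 calls among the named members, Cyp2j3, Cyp2j10, Cyp2c7 and Ephx2 among the higher ones. Scaling between arrays and robust eBayes changed no call among the 54, nor did unrevised symbols among the 53 that have a value there (Aox2 has none). Each array alone gives a value with no test. No paired analysis was possible because there is a single group. No intensities were used, so signal over background is unknown.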
